A study of Mus musculus with 9 samples.

Results

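The 39 genes described here encode proteins of the DNA damage response and of DNA repair, measured in mouse embryonic cortex at E13.5. They were given by name, and the rule uses no measured value. All 39 were found among the 35498 genes of the tables, and all 39 passed the filter on low counts. Bulk RNA was sequenced from 9 libraries of C57Bl/6 cortical tissue, prepared as stranded mRNA libraries, with 3 libraries in each of 3 groups. DKO embryos were Smarca1 -/-; Cre +/-, and the design names them as double knockouts of Smarca5 and Smarca1. Smarca1 KO embryos were Smarca1 -/-; Cre -/-, so they share the Smarca1 deletion with DKO and lack Cre. WT embryos were Smarca1 +/+; Cre -/-. The sources used here do not give the promoter that drives Cre or the Smarca5 alleles of the groups without Cre. Nor do they tie each replicate to an embryo of its own, so a p-value covers only the spread between libraries, which may be technical. Smarca5 and Smarca1 are the ATPases of the ISWI remodellers, which slide and space nucleosomes.

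Cells meet DNA damage with sensors that find the lesion, kinases that spread the alarm, mediators that build a platform on the surrounding chromatin, and repair pathways suited to the lesion and to the stage of the cell cycle. Homologous recombination copies the intact sister chromatid and therefore runs in S and G2 phase, whereas non-homologous end joining seals broken ends at any stage. In the embryonic cortex radial glia divide rapidly, and damage that is left over from replication there is known to trigger p53-dependent death of progenitors and newborn neurons. Transcription of many replication, checkpoint and recombination genes depends on E2F factors, so their RNA is more abundant in cycling cells than in neurons.

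The sums over genes lay between 27466225 and 46007718 counts per library. Smarca5 RNA was 84.4, 79.2 and 77.2 CPM (counts scaled to a common library total, with TMM factors) in DKO, 245.8, 243.1 and 212 in Smarca1 KO and 267, 271 and 262 in WT, so the DKO libraries stood apart from the others in the way the labels say. Smarca1 RNA was 37.9, 38.8 and 38.4 CPM in DKO, 42.3, 35.3 and 43.8 in Smarca1 KO and 37.8, 36.4 and 37.3 in WT. The groups overlapped for Smarca1, and since no source used here gives the deleted exons, this RNA level does not check the Smarca1 genotype. All 19 radial glia markers, all 12 intermediate progenitor markers and all 16 projection neuron markers examined had counts in every group. DKO replicate 1 and Smarca1 KO replicate 1 were the highest libraries in meninges markers, summing to 1001 and 918 CPM, against 430 to 775 CPM in the other 7. In bulk tissue, fewer cells of a type and less RNA per cell cannot be told apart.

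Levels between genes were compared per transcript length, as deposited TPM summed to the gene. Trp53bp1, whose protein 53BP1 steers double-strand breaks toward end joining, had the highest level of the 39, at 194, 198 and 179 TPM in DKO, 191, 186 and 207 in Smarca1 KO and 215, 212 and 200.2 in WT. Parp1, the poly(ADP-ribose) polymerase that senses strand breaks, came next at 162, 170.2 and 172 TPM in DKO, 171, 183 and 167 in Smarca1 KO and 201, 197 and 195 in WT. These neighbours overlapped in WT (200.2 to 215 TPM for Trp53bp1 and 195 to 201 TPM for Parp1). Topbp1, the activator of the ATR kinase, followed with 88.2 ± 2.701 TPM in DKO, 87.4 ± 15.04 TPM in Smarca1 KO and 103 ± 4.61 TPM in WT (SD, n = 3 each), apart from Parp1 in every library. Then came Xrcc1 at 86.3 ± 1.78 TPM, Rnf8 at 63.1 ± 4.63 TPM and Mdc1 at 55.4 ± 2.26 TPM in WT (SD, n = 3). At the low end stood Bard1 at 8.61 ± 0.256 TPM, Prkdc at 5.903 ± 0.255 TPM and Brip1 at 5.13 ± 0.525 TPM in WT (SD, n = 3). Brip1 and Prkdc, the helicase partner of BRCA1 and the catalytic subunit of DNA-PK, were both detected in all 9 libraries. Much of the level of Trp53bp1 and Rnf8 lay in transcripts not annotated as protein-coding: protein-coding transcripts held 32.1% ± 1.09 of the Trp53bp1 TPM and 7.65% ± 2.20 of the Rnf8 TPM in WT (SD, n = 3). Of the WT reads they held 68.25% for Trp53bp1 and 16.5% for Rnf8. Other members had low shares too, such as Chek1 with 32.3% of TPM and 47.9% of reads in WT. Atrip had 40.4% of TPM and 39.6% of reads.

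**Figure D1:**
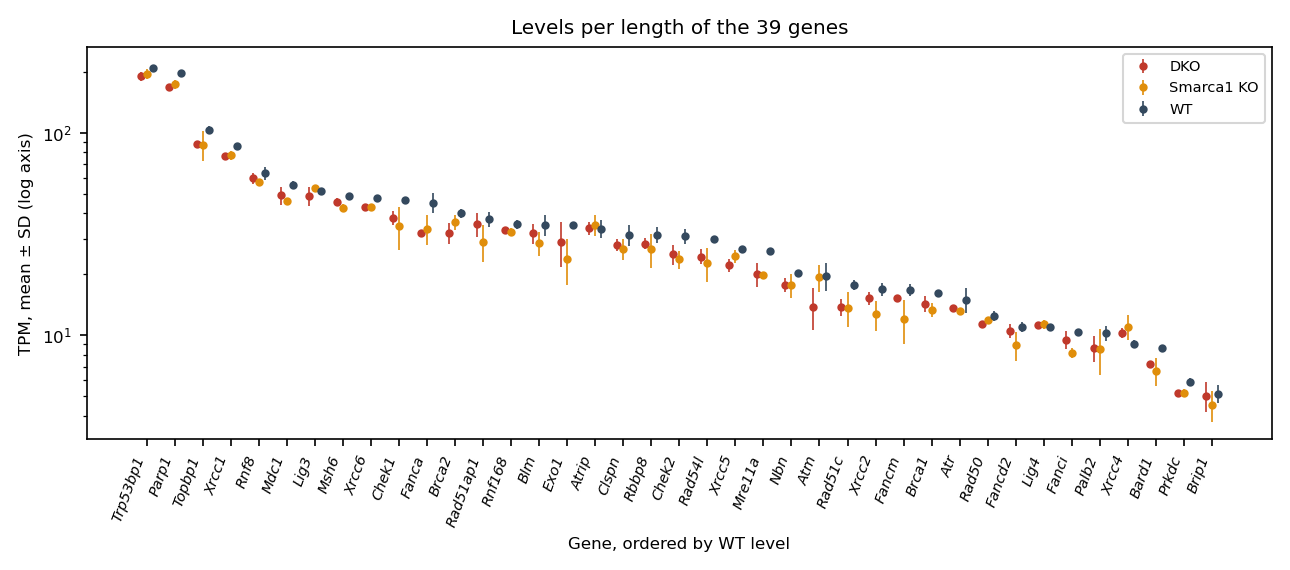
Deposited TPM summed to the gene (vertical axis, log scale) for the 39 genes in order of their WT level, as mean ± SD of 3 libraries for DKO, Smarca1 KO and WT. Trp53bp1 and Parp1 lead near 200 TPM, and Prkdc and Brip1 close the order at 5.90 and 5.13 TPM in WT.

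Smarca1 KO replicate 3 stood apart for the 39 genes. It was the lowest of the 9 libraries for 29 of them (74.4%), against 19.2% of all genes tested. A score, the mean over a list of each gene's log2 CPM difference from its mean over the 9 libraries, was 0.018, -0.062 and -0.089 for the members in DKO, -0.027, 0.030 and -0.26 in Smarca1 KO and 0.13, 0.11 and 0.15 in WT. Every WT library was above every other library, and Smarca1 KO replicates 1 and 2 lay within or just above the DKO range. The 40 genes of G1/S and replication showed the same library as lowest, with scores of 0.077, -0.069 and -0.14 in DKO, -0.0050, 0.046 and -0.37 in Smarca1 KO and 0.13, 0.14 and 0.20 in WT. The same held for the 37 genes of G2/M and mitosis, at 0.11, -0.081 and -0.093 in DKO, 0.014, 0.035 and -0.41 in Smarca1 KO and 0.13, 0.12 and 0.17 in WT. That library also had the highest projection neuron score, 0.29. The projection neuron scores of the rest were -0.21, 0.0080 and 0.066 in DKO, -0.11 and 0.16 in the other Smarca1 KO libraries and -0.030, -0.021 and -0.15 in WT.

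**Figure D2:**
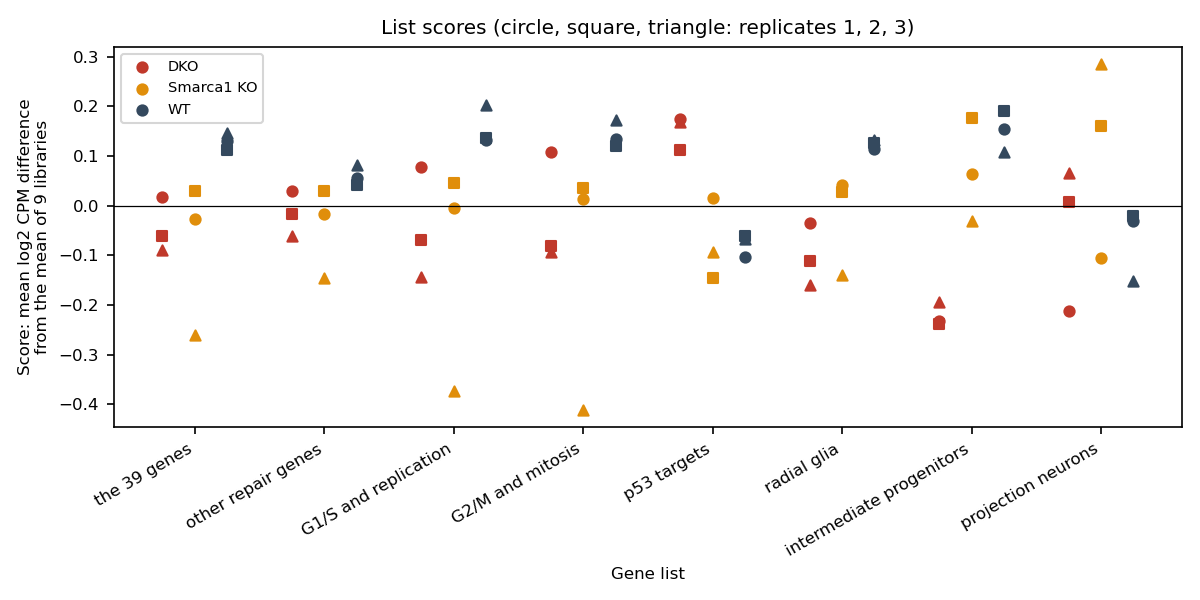
Score of 8 gene lists (vertical axis, mean log2 CPM difference from the mean of 9 libraries) for DKO, Smarca1 KO and WT, with circle, square and triangle for replicates 1, 2 and 3. WT is highest for the 39 genes, and Smarca1 KO replicate 3 is lowest there and in both cell cycle lists.

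DKO was first set against Smarca1 KO, the comparison in which the groups share the Smarca1 deletion and differ in Cre. No member was called by edgeR's quasi-likelihood test at an adjusted p under 0.05, whereas 4.39% of all 15773 genes tested were called in either direction. DESeq2 called no member either, against 7.5% of the genes to which it gave an adjusted p. In edgeR 2 of 39 had an unadjusted p under 0.05, against 18.4% of all genes tested. The median log2 fold change of the members was 0.023, against 0.0041 for all genes tested, with a range of -0.16 for Xrcc5 to 0.28 for Rad51ap1. Standard errors of the members ran from 0.035 to 0.17 on the log2 scale, so differences of that order were not detectable. The 3 DKO libraries lay apart from the 3 Smarca1 KO libraries for 2 members, against 20.5% of all genes tested. Those were Mdc1, higher in DKO (log2 0.17 ± 0.061 SE, adjusted p 0.165), and Rad50, lower in DKO (-0.11 ± 0.049 SE, adjusted p 0.284), and neither passed the test. Without Smarca1 KO replicate 3, the median of the members was -0.045 and 29 of 39 fold changes lay below 0, against 15 of 39 with it.

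DKO set against WT asks for the effect of both genotype changes together. 5 of the 39 members fell in DKO: Brca2, Fanca, Atm, Parp1 and Rad50, by 15.4% to 27.5%. None rose. The 5 are 12.8% of the members, where 6.35% of all genes tested were called lower and 12% were called in either direction. An unadjusted p under 0.05 was found for 14 of 39 members and for 31% of all genes tested, so by both counts in either direction the members lay near the background. All 14 were lower in DKO, and the share of all genes with such a p in that direction alone was not counted. The median log2 fold change of the members was -0.17, against 0.0078 for all genes tested, and 36 of 39 fold changes lay below 0, against 48.3% of all genes. For 23 of the 39, all 3 DKO libraries were below all 3 WT libraries, which held for 20.4% of all genes tested. Xrcc4 alone among the 39 had its groups apart with DKO the higher. DESeq2 called 11 members lower, against 9.5% of the genes to which it gave an adjusted p. The count of 5 depended on single libraries and on the model: it was 15 without Smarca1 KO replicate 3, 9 without Smarca1 KO replicate 2, 3 without DKO replicate 2, 1 without DKO replicate 3, 0 without WT replicate 1, 1 without WT replicate 2 and 2 without WT replicate 3, and 18 when the fit held only DKO and WT. Calls over all genes swung too, so the swing was not confined to the 39 genes. They numbered 1887 in the reported fit, 3178 without Smarca1 KO replicate 3 and 450 without WT replicate 1. With only DKO and WT in the fit they numbered 3444. With effective-length offsets the count of members was 3, of which 2, Fanca and Parp1, were among the 5 and Mre11a was not. It was 6 without both libraries highest in meninges markers, an alternative chosen after seeing the data.

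Smarca1 KO was then set against WT, the comparison of the Smarca1 deletion without Cre. No member was called by edgeR's quasi-likelihood test, as for nearly all genes here, since 0.336% of all genes tested were called. DESeq2 called 7 members lower, against 3.23% of the genes to which it gave an adjusted p, and 26 of 39 had an unadjusted p under 0.05, all 26 lower in Smarca1 KO. The unadjusted share was 66.7% of the members and 18.9% of all genes tested. The smallest adjusted p was 0.114, for Parp1. The median log2 fold change of the members was -0.24, against 0.010 for all genes tested, and 37 of 39 fold changes lay below 0. All 3 Smarca1 KO libraries were below all 3 WT libraries for 25 of the 39, against 13.6% of all genes tested. Without Smarca1 KO replicate 3, the median was -0.14 and 18 members had an unadjusted p under 0.05. Because the 3 comparisons share their libraries pairwise, their fold changes for the 39 genes are not separate evidence.

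**Figure D3:**
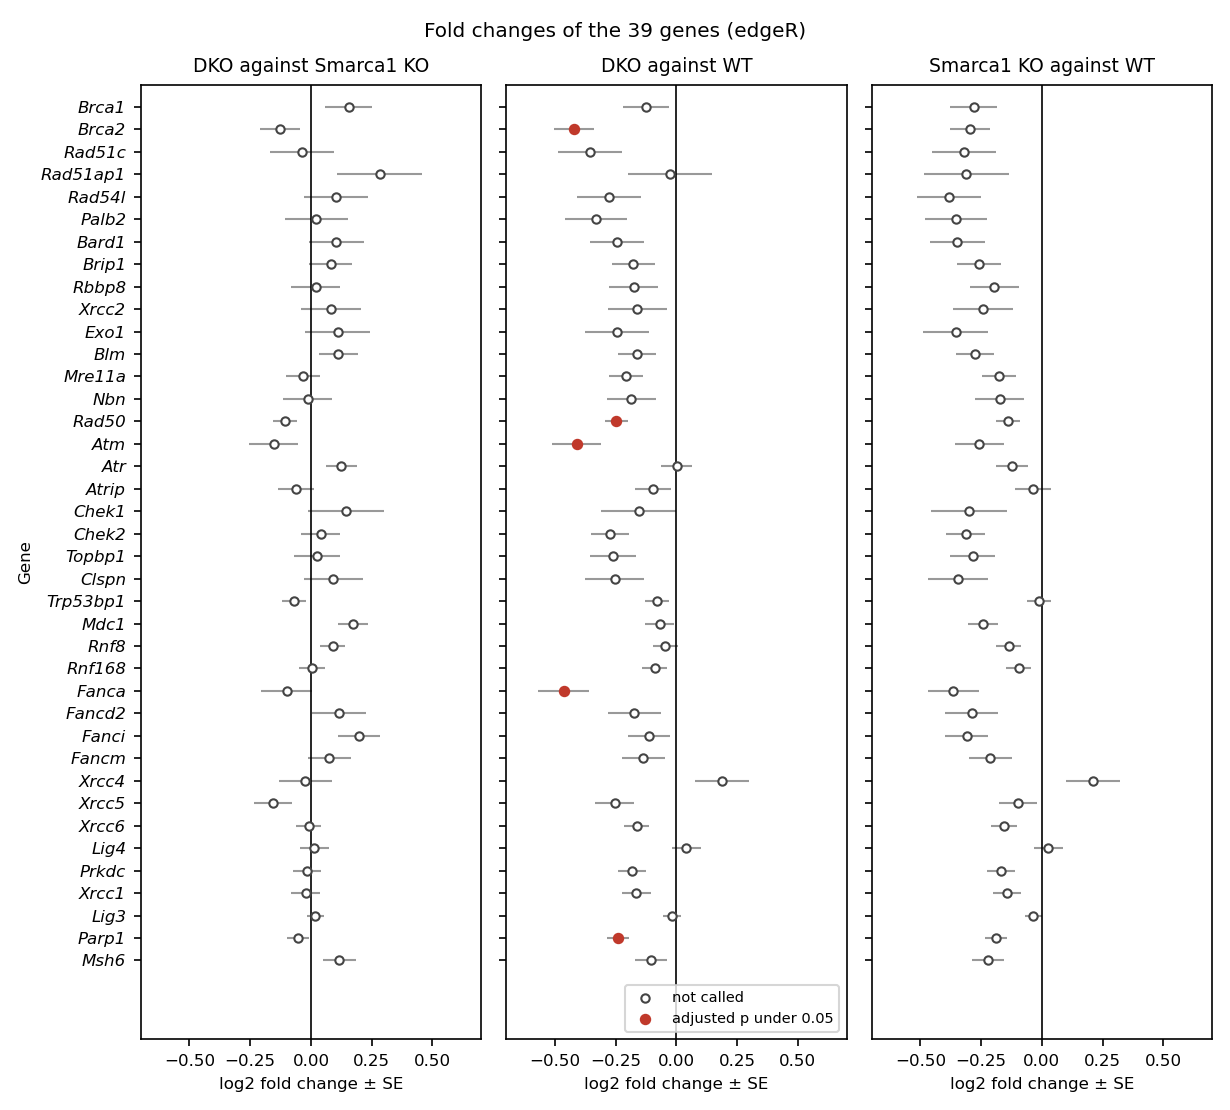
Log2 fold change (horizontal axis) ± SE of each of the 39 genes in the 3 comparisons, with genes in role order and filled points for an adjusted p under 0.05 in edgeR. Filled points are Brca2, Rad50, Atm, Fanca and Parp1 in DKO against WT, and in the same panel most open points also lie left of 0.

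The first lines of the response are the MRN complex (Mre11a, Nbn and Rad50), which binds and trims broken ends, and the kinases it serves. Atm, the kinase activated at double-strand breaks (ENSMUSG00000034218.16, GRCm38 chromosome 9, 53439149 to 53536740), had 50.3, 39.7 and 40.2 CPM in DKO, 51.1, 51.3 and 42.3 in Smarca1 KO and 58.9, 56.6 and 57.7 in WT. Every WT library was above every DKO and Smarca1 KO library. Atm fell by 24.8% in DKO against WT (log2 -0.41 ± 0.10 SE, adjusted p 0.0296, edgeR), while the value was -0.15 ± 0.10 in DKO against Smarca1 KO and -0.26 ± 0.10 in Smarca1 KO against WT. Over the 18 alternatives to the DKO against WT fit, the Atm value ran from -0.53 to -0.25 and the adjusted p from 0.00221 to 0.809. Its deposited TPM was less orderly, at 13.8 ± 3.19 in DKO, 19.3 ± 3.04 in Smarca1 KO and 19.6 ± 3.19 in WT (SD, n = 3 each). Protein-coding transcripts held 85.3% ± 14.7 of the Atm TPM in DKO, 54.2% ± 4.79 in Smarca1 KO and 78.5% ± 14.5 in WT (SD, n = 3 each). Of the Atm reads, on which the CPM rest, they held 99.6% in DKO, 98.9% in Smarca1 KO and 99.2% in WT (means). Rad50, the ATPase that tethers the ends (ENSMUSG00000020380.16, GRCm38 chromosome 11, 53649519 to 53707319), had 28.3, 28.1 and 27.6 CPM in DKO, 30.6, 30.5 and 29.4 in Smarca1 KO and 34.6, 32.9 and 32.2 in WT. The 3 groups did not overlap, with DKO lowest and WT highest. Rad50 fell by 15.7% in DKO against WT (log2 -0.25 ± 0.049 SE, adjusted p 0.0153, edgeR), and the change was -0.14 ± 0.049 in Smarca1 KO against WT (adjusted p 0.195). Alternatives gave -0.27 to -0.14 for Rad50 in DKO against WT, with adjusted p of 0.00105 to 0.683.

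The nuclease Mre11a had 38.03 ± 1.49 CPM in DKO, 38.9 ± 3.71 CPM in Smarca1 KO and 43.9 ± 1.29 CPM in WT (SD, n = 3 each), with DKO against WT at an adjusted p of 0.0772 in edgeR. The third MRN subunit, Nbn, had 22.5 ± 1.85, 22.6 ± 3.16 and 25.6 ± 0.971 CPM in DKO, Smarca1 KO and WT (SD, n = 3 each), with overlapping groups. Atr, the kinase that answers single-stranded DNA at stalled forks (ENSMUSG00000032409.15, GRCm38 chromosome 9, 95857597 to 95951781), had 50.6, 48.6 and 46.4 CPM in DKO, 45.98, 47.05 and 40.3 in Smarca1 KO and 46.8, 49.3 and 49.3 in WT. DKO and WT overlapped, and the log2 fold change of DKO against WT was 0.0019 ± 0.064 (SE), while DKO against Smarca1 KO gave 0.13 ± 0.064 and Smarca1 KO against WT gave -0.12 ± 0.064. Smarca1 KO replicate 3 was the lowest library for Atr. Its partner Atrip had 40.9 ± 3.77 CPM in DKO, 42.7 ± 1.06 CPM in Smarca1 KO and 43.8 ± 3.09 CPM in WT (SD, n = 3 each). Atrip shares 16.9% of its 31-base words with Trex1, which overlaps it on the same strand, so its reads may be divided with that gene.

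Downstream of the kinases, the checkpoint group holds the effector kinases and the mediators that gather at damaged chromatin. None of its 8 members was called by edgeR in any comparison, whereas DESeq2 called Chek2 and Topbp1 lower in DKO against WT and Chek2 and Mdc1 lower in Smarca1 KO against WT. Chek1, the effector kinase of ATR that holds cells in S and G2 phase (ENSMUSG00000032113.16, GRCm38 chromosome 9, 36708482 to 36727065), had 35.8, 34.5 and 31.97 CPM in DKO, 36.3, 34.3 and 21.6 in Smarca1 KO and 36.2, 37.9 and 39.7 in WT. Smarca1 KO replicate 3 lay far below the other 8 libraries, which ran from 32.0 to 39.7 CPM. The log2 fold change of Smarca1 KO against WT was -0.30 ± 0.16 with that library (SE, adjusted p 0.325, edgeR), and DKO against WT gave -0.15 ± 0.15. Chek2, the effector kinase of ATM (ENSMUSG00000029521.7, GRCm38 chromosome 5, 110839979 to 110874145), had 17.8, 17.8 and 17.5 CPM in DKO, 17.96, 18.5 and 15.2 in Smarca1 KO and 20.7, 21.1 and 22.3 in WT. All 3 WT libraries were above the other 6. In DKO against WT, Chek2 changed by -0.27 ± 0.08 on the log2 scale (SE, edgeR's adjusted p 0.0526), just short of a call, and -0.31 ± 0.08 in Smarca1 KO against WT (adjusted p 0.128).

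Among the mediators, Trp53bp1 (ENSMUSG00000043909.16, GRCm38 chromosome 2, 121193281 to 121271407) had 378, 385 and 359.6 CPM in DKO, 374, 385 and 419 in Smarca1 KO and 407, 389 and 393 in WT. Smarca1 KO replicate 3, the lowest library for most members, was the highest of the 9 for Trp53bp1. The log2 fold change of DKO against WT was -0.082 ± 0.05 (SE, adjusted p 0.294, edgeR), and Smarca1 KO against WT gave -0.013 ± 0.05. Trp53bp1 shares 14.4% of its 31-base words with Tubgcp4 on the opposite strand, and whether the counting used strand is not given in the sources used here. Topbp1 had 176, 161 and 155 CPM in DKO, 172, 179 and 134 in Smarca1 KO and 196, 197 and 197 in WT. The SD of the WT libraries was 0.421 CPM (n = 3), and the other 6 libraries all lay lower. Clspn, the claspin adaptor that brings CHK1 to ATR, had 58.3 ± 4.87 CPM in DKO, 54.6 ± 10.5 CPM in Smarca1 KO and 69.4 ± 2.602 CPM in WT (SD, n = 3 each). Mdc1, which reads phosphorylated H2AX, had 140.5, 152 and 142 CPM in DKO, 132, 137 and 116 in Smarca1 KO and 153, 147 and 155 in WT, and DKO overlapped WT but not Smarca1 KO. The ubiquitin ligases Rnf8 and Rnf168, which act after MDC1, had log2 fold changes of -0.046 ± 0.051 and -0.09 ± 0.053 in DKO against WT (SE), neither called. Rnf8 shares 16.9% of its 31-base words with the model Gm28043.

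**Figure D4:**
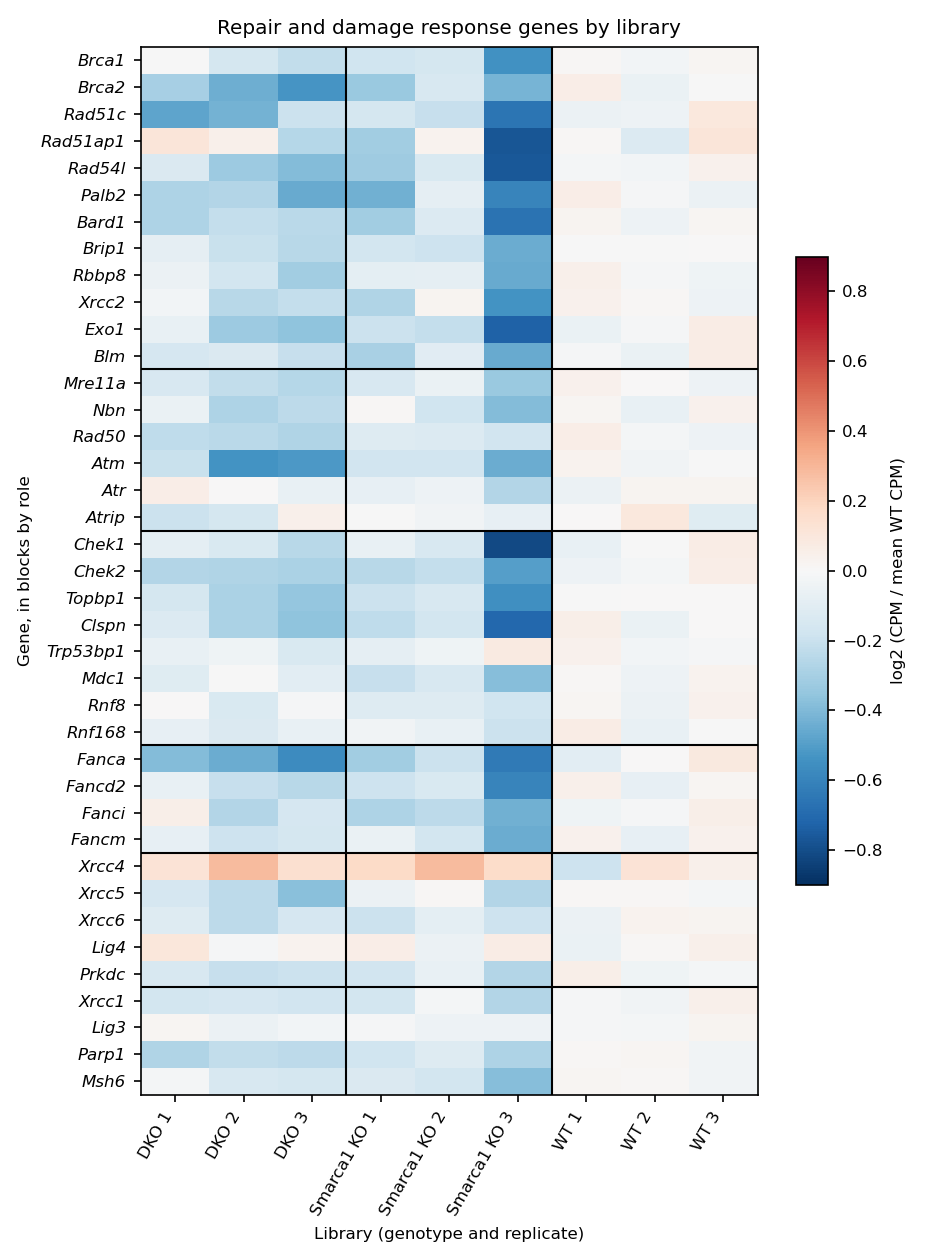
Log2 ratio of each library's CPM to the mean WT CPM (colour, blue for lower) for the 39 genes in rows, in blocks by role, and the 9 libraries in columns. The third Smarca1 KO column is the darkest, since it is the lowest of the 9 libraries for 29 of the 39 genes.

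Homologous recombination was the largest group, with 12 genes, and held 1 of the 5 calls. Its median log2 fold change was 0.094 in DKO against Smarca1 KO, -0.21 in DKO against WT and -0.30 in Smarca1 KO against WT. DKO lay wholly below WT for 9 of the 12, against 20.4% of all genes tested. Smarca1 KO lay wholly below WT for 10 of the 12, against 13.6% of all genes tested. Brca2, a tumour suppressor of homologous recombination (ENSMUSG00000041147.10, GRCm38 chromosome 5, 150522630 to 150570329), had 37.1, 33.7 and 31.7 CPM in DKO, 36.3, 41.4 and 34.2 in Smarca1 KO and 47.7, 43.9 and 45.7 in WT. All WT libraries were above the other 6, while DKO and Smarca1 KO overlapped. Brca2 fell by 25.4% in DKO against WT (log2 -0.42 ± 0.081 SE, adjusted p 0.0138, edgeR), with -0.30 ± 0.081 in Smarca1 KO against WT (adjusted p 0.14) and -0.13 ± 0.081 in DKO against Smarca1 KO. Per length, the leading Brca2 transcript was one annotated as retaining an intron, and protein-coding transcripts held 15.7% ± 0.44 of its TPM but 76.1% of its reads in WT (TPM share: SD, n = 3). With only protein-coding transcripts counted, Brca2 was still called in DKO against WT, and across all alternatives its value there ran from -0.49 to -0.32 (adjusted p 0.000117 to 0.671).

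Brca1, the ubiquitin ligase that promotes end resection (ENSMUSG00000017146.12, GRCm38 chromosome 11, 101488764 to 101551955), had 51.6, 46.5 and 44.6 CPM in DKO, 45.9, 46.5 and 35.5 in Smarca1 KO and 52.2, 50.99 and 52.4 in WT. DKO replicate 1 reached the WT range, and Smarca1 KO replicate 3 stood below the rest. The log2 fold change of DKO against WT was -0.13 ± 0.096 (SE, adjusted p 0.406, edgeR), and Smarca1 KO against WT gave -0.28 ± 0.096 (adjusted p 0.186). Bard1, the obligate partner of BRCA1, had 21.7 ± 0.515 CPM in DKO, 20.1 ± 3.71 CPM in Smarca1 KO and 25.7 ± 0.683 CPM in WT (SD, n = 3 each). Palb2, the bridge from BRCA1 to BRCA2, had 9.99 ± 0.717 CPM in DKO, 9.83 ± 1.84 CPM in Smarca1 KO and 12.5 ± 0.487 CPM in WT (SD, n = 3 each), and WT did not overlap the others. Rad51c, another gene of this pathway, had 13.6 ± 1.46 CPM in DKO, 13.9 ± 2.501 CPM in Smarca1 KO and 17.4 ± 0.997 CPM in WT (SD, n = 3 each). For Rad51c, a transcript annotated for nonsense-mediated decay led, and protein-coding transcripts held 26.7% of the reads in WT.

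Spread was wider in several of the other recombination genes. Exo1, the resection nuclease, and Rad54l, a DNA-dependent motor protein, had log2 fold changes of -0.24 ± 0.13 and -0.28 ± 0.13 in DKO against WT (SE), with -0.35 ± 0.13 and -0.38 ± 0.13 in Smarca1 KO against WT. Rad54l shares 14% of its 31-base words with Lrrc41 on the opposite strand. Rad51ap1, which had the largest standard error of the 39, was at 24.98, 23.8 and 19.4 CPM in DKO, 18.6, 23.7 and 13.6 in Smarca1 KO and 23.3, 21.2 and 24.9 in WT. Its groups all overlapped, and its change in DKO against Smarca1 KO, 0.28 ± 0.17 (SE), was not called in edgeR (adjusted p 0.441). For the dissolvasome helicase Blm, the BRCA1-partner helicase Brip1, the resection factor Rbbp8 and the recombination gene Xrcc2, the fold changes of DKO against WT lay close together at -0.16, -0.18, -0.18 and -0.16 on the log2 scale, and none was called.

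The Fanconi anaemia pathway unhooks crosslinks between the strands, and 4 of its genes are among the 39. Fanca, a subunit of the core ubiquitin ligase (ENSMUSG00000032815.16, GRCm38 chromosome 8, 123268300 to 123318576), had 31.6, 30.4 and 27.96 CPM in DKO, 33.4, 36.3 and 26.6 in Smarca1 KO and 38.9, 41.5 and 43.9 in WT. WT lay above both other groups, and DKO and Smarca1 KO overlapped. Fanca fell by 27.5% in DKO against WT (log2 -0.46 ± 0.10 SE, adjusted p 0.0231, edgeR), the most of the 39, and changed by -0.37 ± 0.10 in Smarca1 KO against WT (adjusted p 0.147). Its value in DKO against WT ran from -0.51 to -0.16 over the alternatives (adjusted p 0.00093 to 0.885). Fanca shares 10.9% of its 31-base words with Zfp276 on the opposite strand. Fancd2, the protein that the core complex ubiquitinates (ENSMUSG00000034023.16, GRCm38 chromosome 6, 113531682 to 113597017), had 27.2, 24.7 and 24.04 CPM in DKO, 25.1, 26 and 18.9 in Smarca1 KO and 29.5, 27.1 and 28.9 in WT. DKO replicate 1 lay just above the lowest WT library, and the log2 fold change of DKO against WT was -0.17 ± 0.11 (SE, adjusted p 0.307, edgeR). Fanci, the partner of FANCD2, had 23.4 ± 2.61 CPM in DKO, 20.5 ± 1.44 CPM in Smarca1 KO and 25.4 ± 0.822 CPM in WT (SD, n = 3 each). Fanci shares 14.2% of its 31-base words with Polg on the opposite strand. The fork remodeller Fancm had 41.99 ± 1.73 CPM in DKO, 39.8 ± 5.36 CPM in Smarca1 KO and 46.1 ± 2.08 CPM in WT (SD, n = 3 each).

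In the end-joining group, edgeR called no gene, DESeq2 called Prkdc, Xrcc5 and Xrcc6 lower in DKO against WT, and its members did not all lie on one side of 0. Prkdc, the DNA-PK kinase subunit (ENSMUSG00000022672.8, GRCm38 chromosome 16, 15637866 to 15842235), had 36.2, 34.6 and 34.8 CPM in DKO, 35.4, 38.1 and 33.3 in Smarca1 KO and 41.5, 38.9 and 39.4 in WT. All DKO and Smarca1 KO libraries were below all WT libraries, and the log2 fold changes were -0.18 ± 0.058 in DKO against WT (SE, adjusted p 0.0679, edgeR) and -0.17 ± 0.058 in Smarca1 KO against WT. The Ku subunits Xrcc5 and Xrcc6, which slide onto broken ends, had WT levels above their DKO levels. Xrcc5 had 28.9 ± 2.28 CPM in DKO, 32.2 ± 3.098 CPM in Smarca1 KO and 34.5 ± 0.336 CPM in WT (SD, n = 3 each). Xrcc6 had 37.2 ± 1.54 CPM in DKO, 37.5 ± 1.53 CPM in Smarca1 KO and 41.8 ± 1.36 CPM in WT (SD, n = 3 each). Their adjusted p in DKO against WT was 0.065 for Xrcc5 and 0.07 for Xrcc6 in edgeR. Xrcc4 and Lig4, the scaffold and the ligase of the final sealing step, were the members with fold changes above 0 in both comparisons with WT. Xrcc4 had 7.41, 8.29 and 7.49 CPM in DKO, 7.64, 8.29 and 7.61 in Smarca1 KO and 5.97, 7.38 and 7.03 in WT. Its WT libraries were the 3 lowest, with log2 fold changes of 0.19 ± 0.11 in DKO against WT and 0.21 ± 0.11 in Smarca1 KO against WT (SE), neither called in edgeR. Lig4 had 25.04 ± 0.986 CPM in DKO, 24.8 ± 1.11 CPM in Smarca1 KO and 24.4 ± 0.886 CPM in WT (SD, n = 3 each), and its groups overlapped.

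Single-strand break repair and mismatch repair were represented by Parp1, Xrcc1, Lig3 and Msh6. Parp1 (ENSMUSG00000026496.11, GRCm38 chromosome 1, 180568924 to 180601254) had 315, 326 and 324 CPM in DKO, 336, 352 and 314 in Smarca1 KO and 384, 385 and 372 in WT. WT lay above the other 6 libraries, and DKO and Smarca1 KO overlapped. Parp1 fell by 15.4% in DKO against WT (log2 -0.24 ± 0.045 SE, adjusted p 0.0126, edgeR) and had the smallest adjusted p of the 39 there. The range over the alternatives was -0.26 to -0.13 for Parp1 in DKO against WT (adjusted p 2.6e-05 to 0.755). In Smarca1 KO against WT it changed by -0.19 ± 0.045 (adjusted p 0.114). Protein-coding transcripts held 90.8% ± 1.48 of its TPM in DKO, 91.0% ± 2.12 in Smarca1 KO and 91.5% ± 1.64 in WT (SD, n = 3 each). Xrcc1, the scaffold that PARP1 recruits (ENSMUSG00000051768.9, GRCm38 chromosome 7, 24546289 to 24573440), had 67.8, 68.5 and 67.5 CPM in DKO, 68.01, 75.3 and 63.4 in Smarca1 KO and 75.4, 74.4 and 78.5 in WT. DKO was below WT in every library, and its change was -0.16 ± 0.059 on the log2 scale (SE, edgeR's adjusted p 0.0941). Lig3, the ligase partner of XRCC1, had 116 ± 2.67 CPM in DKO, 114 ± 1.54 CPM in Smarca1 KO and 117 ± 1.83 CPM in WT (SD, n = 3 each). It had the smallest standard error of the 39, and its log2 fold change of DKO against WT was -0.018 ± 0.035 (SE). Lig3 shares 24.3% of its 31-base words with Rffl on the opposite strand. Msh6, the mismatch sensor, had 102 ± 5.66 CPM in DKO, 93.8 ± 8.699 CPM in Smarca1 KO and 109 ± 1.92 CPM in WT (SD, n = 3 each).

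**Figure D5:**
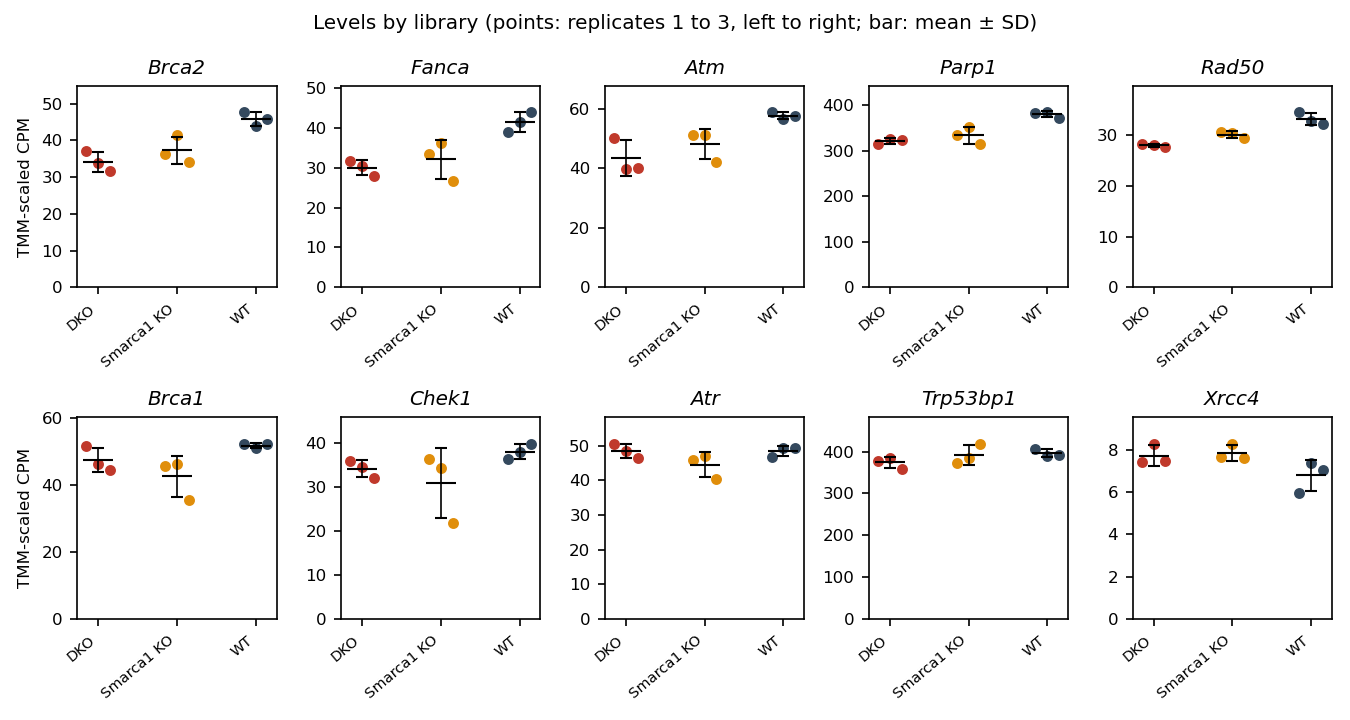
TMM-scaled CPM (vertical axis, from 0) of the 5 genes called in DKO against WT in the upper row and of 5 further genes in the lower row, 1 point per library with mean ± SD of 3. The 3 WT libraries lie above the others in each upper panel, and Smarca1 KO replicate 3 is the low point for Brca1 and Chek1.

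Promoter sequence was examined because most of the members lay below WT together. RefSeq promoter windows (GRCm38.p6, 250 bases before to 50 after the start) matched 32 of the 39 members. The E2F motifs TTTCCCGC and TTTGGCGC, on either strand, occurred in 7 of the 32 (21.9%), against 2.75% of 14333 tested genes with a window and 1.80% of all 27025 genes with one. CCAAT, the NF-Y motif, which does not overlap them, occurred in 19 of the 32 (59.4%), against 42.1% of tested genes. The CHR motifs TTTGAA and TTCGAA occurred in 3 of the 32 (9.38%), against 17.7% of tested genes. All 7 E2F matches were TTTCCCGC, shown here in capitals with 8 bases on each side, 5′ to 3′ on the strand of the motif, because they are of the motifs searched, the ones with the largest contrast to other promoters.
Bard1, chr1:71103166-71103189, minus strand: ccgctcagTTTCCCGCtcaggaag
Brca2, chr5:150522445-150522468, minus strand: tgtgtctgTTTCCCGCtgtggcct
Chek2, chr5:110839823-110839846, minus strand: cgtcttggTTTCCCGCggctaatc
Mdc1, chr17:35841474-35841497, plus strand: tcagcctgTTTCCCGCcggtagcc
Msh6, chr17:87975057-87975080, plus strand: ctcccgacTTTCCCGCcagcggcg
Rad51c, chr11:87404944-87404967, plus strand: cccttgctTTTCCCGCcctcgcgg
Xrcc6, chr15:82016315-82016338, minus strand: cactcgcaTTTCCCGCttccaccc
The log2 fold changes of DKO against WT for these genes were -0.24 for Bard1, -0.42 for Brca2, -0.27 for Chek2, -0.069 for Mdc1, -0.10 for Msh6, -0.36 for Rad51c and -0.16 for Xrcc6, and of these edgeR called Brca2 alone and DESeq2 also Chek2 and Xrcc6. Of all 39 members, 36 lay below 0 in that comparison, with a median of -0.17, and a link between motif and fold change was not tested. A match describes the letters of the window and is not evidence of binding. For E2F only TTTCCCGC and TTTGGCGC were searched, as exact letters, so a window without a match is not shown to lack an E2F site.

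Of the 5 genes called in DKO against WT, 4 matched a promoter window: Atm, Brca2, Fanca and Parp1. The windows are shown whole because these genes carried the calls, 5′ to 3′ on the strand of the gene, with TTTCCCGC and CCAAT or their reverse complements in capitals.
Atm, chr9:53536622-53536921, minus strand: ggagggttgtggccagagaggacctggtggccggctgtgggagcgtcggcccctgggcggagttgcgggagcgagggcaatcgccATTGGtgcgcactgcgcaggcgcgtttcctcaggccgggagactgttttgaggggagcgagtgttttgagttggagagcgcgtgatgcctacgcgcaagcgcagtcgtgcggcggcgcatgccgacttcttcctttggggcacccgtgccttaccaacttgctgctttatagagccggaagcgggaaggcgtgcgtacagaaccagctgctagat
Brca2, chr5:150522371-150522670, plus strand: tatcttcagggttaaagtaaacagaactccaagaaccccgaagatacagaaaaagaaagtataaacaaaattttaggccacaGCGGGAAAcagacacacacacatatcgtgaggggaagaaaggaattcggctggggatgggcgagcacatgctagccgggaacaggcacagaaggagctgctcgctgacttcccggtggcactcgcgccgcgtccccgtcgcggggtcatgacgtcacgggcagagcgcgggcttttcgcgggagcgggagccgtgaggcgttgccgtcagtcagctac
Fanca, chr8:123318527-123318826, minus strand: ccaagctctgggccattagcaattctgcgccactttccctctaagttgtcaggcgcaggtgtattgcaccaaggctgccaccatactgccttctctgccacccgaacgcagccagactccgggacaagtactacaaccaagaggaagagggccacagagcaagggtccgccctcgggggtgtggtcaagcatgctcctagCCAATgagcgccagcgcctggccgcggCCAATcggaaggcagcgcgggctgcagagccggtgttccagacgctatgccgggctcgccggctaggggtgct
Parp1, chr1:180568641-180568940, plus strand: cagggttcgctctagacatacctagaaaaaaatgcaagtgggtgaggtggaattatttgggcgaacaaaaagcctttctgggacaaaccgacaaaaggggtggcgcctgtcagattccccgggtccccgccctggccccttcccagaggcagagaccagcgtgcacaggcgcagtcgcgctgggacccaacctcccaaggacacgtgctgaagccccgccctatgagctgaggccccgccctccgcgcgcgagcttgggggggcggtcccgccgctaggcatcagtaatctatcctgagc
Brca2 held 1 E2F motif, Atm held 1 CCAAT, Fanca held 2, and the window of Parp1 held none of the motifs searched. The called genes therefore did not have a motif in common among those searched.

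Cell type markers moved beside the repair genes. Radial glia markers, the 19 genes of the dividing apical progenitors, summed to 3565 to 3846 CPM in DKO, 3452 to 3803 CPM in Smarca1 KO and 4065 to 4151 CPM in WT, so WT was highest here too. Of the 19, 7 fell and 3 rose in DKO against WT, and 1 fell in Smarca1 KO against WT. Over all genes tested, 6.35% were called lower and 5.61% higher in DKO against WT. All DKO libraries lay below all WT libraries for 20.4% of all genes tested, and above them for 20.9%. Called lower were 2.66% of all genes tested in DKO against Smarca1 KO and 0.1965% in Smarca1 KO against WT. The 12 intermediate progenitor markers summed to 1050 to 1088 CPM in DKO, 1112 to 1295 CPM in Smarca1 KO and 1235 to 1282 CPM in WT, with 3 lower in DKO against Smarca1 KO and 5 lower in DKO against WT. Ventral interneuron markers summed to 1160 to 1387 CPM in DKO, 1046 to 1154 CPM in Smarca1 KO and 952 to 1101 CPM in WT, with 8 of 14 higher in DKO against WT. Microglia markers summed to 86.3 to 116 CPM in DKO, 72.05 to 90.1 CPM in Smarca1 KO and 71.6 to 72.6 CPM in WT. Cajal-Retzius cell markers, 7 genes of the early marginal zone neurons, summed to 399 to 426.5 CPM in DKO, 309.6 to 415 CPM in Smarca1 KO and 326 to 353.5 CPM in WT, and in DKO against WT 3 of 7 rose and 6 of 7 had all DKO libraries above all WT libraries. Blood markers summed to 882 to 1458 CPM in DKO, 1064 to 1625 CPM in Smarca1 KO and 1397 to 1876 CPM in WT, and in DKO against WT 1 of 10 fell and 5 of 10 had all DKO libraries below all WT libraries (list median -0.56 on the log2 scale). Markers of meninges and mesenchyme summed to 464 to 1001 CPM in DKO, 430.0 to 918 CPM in Smarca1 KO and 659.8 to 775 CPM in WT. The part of any of these in the members' differences was not tested. Y-linked genes summed to 238.5 to 247 CPM in DKO, 253 to 268 CPM in Smarca1 KO and 258 to 266 CPM in WT. With their level as a covariate, no member was called in DKO against WT, and only 6 of all genes tested were, against 1887 without it. The median log2 fold change of the members in that fit was -0.022, and 21 of 39 lay below 0. In DKO against Smarca1 KO that fit gave a median of 0.215, against 0.023 without it. However, group explained 77.1% of that covariate, so the group and the Y-linked level cannot be told apart.

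Further repair genes were examined as a list of 106, all of them tested. In DKO against Smarca1 KO, 5 rose and none fell in edgeR, against 1.73% of all genes tested called higher, with a list median of 0.0027 on the log2 scale. Fancc, a core subunit of the Fanconi ligase, had 15.5, 12.8 and 11.9 CPM in DKO, 8.603, 7.06 and 10.3 in Smarca1 KO and 7.61, 7.38 and 8.37 in WT, so DKO was highest. Rad18, the ligase that marks PCNA for damage bypass, had 25.2, 25.4 and 23.6 CPM in DKO, 20.3, 19.4 and 16.2 in Smarca1 KO and 22.8, 22.6 and 22.8 in WT. Rmi2, a subunit of the BLM dissolvasome, had 14.5, 14.3 and 13.7 CPM in DKO, 10.8, 11.6 and 9.95 in Smarca1 KO and 14.3, 13.3 and 13.7 in WT, and here it was Smarca1 KO that lay apart. Ube2t, the E2 enzyme of the Fanconi pathway, had 13.3, 11.4 and 11.4 CPM in DKO, 8.39, 9.62 and 9.14 in Smarca1 KO and 9.47, 8.56 and 8.92 in WT. The log2 fold changes of DKO against Smarca1 KO were 0.63 for Fancc, 0.40 for Rad18, 0.40 for Rmi2 and 0.42 for Ube2t, with adjusted p of 0.0456, 0.0258, 0.0253 and 0.0460 in edgeR. Against WT, 4 of the 106 rose and 6 fell in DKO, against 5.61% of all genes tested called higher and 6.35% called lower, with a median of -0.087. Ddb2, the damage sensor of nucleotide excision repair, rose by 0.50 on the log2 scale (edgeR's adjusted p 0.0131), at 11.3, 13.7 and 12.5 CPM in DKO, 8.99, 9.96 and 9.73 in Smarca1 KO and 9.12, 8.63 and 8.79 in WT. Smc5, an ATPase of the SMC5/6 complex, fell by 0.25 on the log2 scale (adjusted p 0.0110), at 95.7, 96.6 and 88.8 CPM in DKO, 101, 106 and 102 in Smarca1 KO and 112, 114 and 108 in WT. Top3a, the topoisomerase partner of BLM, fell by 0.27 (adjusted p 0.0219). In Smarca1 KO against WT, edgeR called none of the 106, DESeq2 called 7, and 29 had an unadjusted p under 0.05. Over all genes, DESeq2 called 706 there, and 18.9% of all genes tested had an unadjusted p under 0.05 in edgeR.

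Among targets of p53, every call was a rise. Of 34 listed, 32 were tested, and 6 rose in DKO against Smarca1 KO, 8 rose in DKO against WT and none fell in either in edgeR, with 1.73% and 5.61% of all genes tested called higher in those comparisons in the same order. Polk and Ercc5 are also in the list of further repair genes, Btg2 is also an intermediate progenitor marker, and Trp73 is also a Cajal-Retzius cell marker. The list medians were 0.19, 0.11 and 0.017 on the log2 scale in the comparisons in the same order, with Smarca1 KO against WT last. Sesn2, which restrains mTOR under stress, had 16.2, 16.1 and 18.5 CPM in DKO, 11.3, 7.47 and 8.05 in Smarca1 KO and 9.296, 9.74 and 10.4 in WT, a log2 fold change of 0.92 in DKO against Smarca1 KO (adjusted p 0.00961). Cdkn1a, the cell cycle inhibitor p21, had 21.4, 21.6 and 21.6 CPM in DKO, 16.5, 11.4 and 14.4 in Smarca1 KO and 13.8, 13.6 and 15.1 in WT, with 0.61 in DKO against Smarca1 KO (adjusted p 0.0204). For both genes every DKO library was above the other 6. Ccng1, cyclin G1, had 41.5, 38.6 and 42.6 CPM in DKO, 34.5, 28.04 and 31.6 in Smarca1 KO and 30.2, 28.98 and 32.9 in WT. Apaf1, the scaffold of the apoptosome, had 68.4, 64.9 and 70.2 CPM in DKO, 56.03, 56.7 and 59.9 in Smarca1 KO and 65.2, 65.4 and 63.7 in WT, so DKO was near the WT level and Smarca1 KO lay lower. In Smarca1 KO against WT, edgeR called none of the 32, DESeq2 called 1, and 7 had an unadjusted p under 0.05. Over all genes, DESeq2 called 706 there, and 18.9% of all genes tested had an unadjusted p under 0.05 in edgeR.

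Genes of the cell cycle were examined as 2 further lists. Pcna, of the G1/S and replication list, is also in the list of further repair genes. Of the 40 genes of G1/S and replication, none was called in DKO against Smarca1 KO (DESeq2 called 1, and 4 had an unadjusted p under 0.05) and 4 fell in DKO against WT. Those were Pold1, Tyms, Tk1 and Rfc3, which make DNA or its precursors or load its clamp, with log2 fold changes of -0.38, -0.38, -0.46 and -0.20. Of all genes tested, 6.35% were called lower in DKO against WT. In DKO against Smarca1 KO, 4.39% of all genes tested were called and 18.4% had an unadjusted p under 0.05. Tyms, thymidylate synthase, had 58.1, 51.6 and 49.1 CPM in DKO, 59.4, 66.7 and 49.4 in Smarca1 KO and 67.3, 69.02 and 70.8 in WT. The list median was 0.064 in DKO against Smarca1 KO, -0.20 in DKO against WT and -0.27 in Smarca1 KO against WT. Of the 37 genes of G2/M and mitosis, Ccnb2, cyclin B2, was the only one called, and it fell in DKO against Smarca1 KO (-0.44, adjusted p 0.0394) and against WT (-0.68, adjusted p 0.00484), at 34.8, 32.9 and 31.99 CPM in DKO, 50.2, 47.9 and 37.2 in Smarca1 KO and 52.1, 51.5 and 56.6 in WT. The list medians were 0.11, -0.15 and -0.27. In Smarca1 KO against WT, edgeR called none in either list, DESeq2 called 8 and 5, and 26 and 21 had an unadjusted p under 0.05. Over all genes, DESeq2 called 706 in that comparison, and 18.9% of all genes tested had an unadjusted p under 0.05 in edgeR.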

How the data were processed

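Estimated counts and TPM per transcript were deposited by the authors as 1 table per library, with effective lengths, per the file headers. They were made with Salmon 1.4.0, and the build named is mm10, per the submitters' processing notes, which also list DESeq2 with no role. Whether the counting used strand is not given in the sources used here. Identifiers of the 116546 transcripts were matched to GENCODE M21 (GRCm38), of which 115977 matched. The 569 unmatched held 0.104% to 0.116% of the reads. Expected counts were summed to 35498 genes and rounded. The deposited TPM were summed to the gene for levels, and the effective lengths served an alternative fit.

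edgeR 4.0.16 (limma 3.58.1, R 4.3.3) was fitted to all 9 libraries by group, with TMM factors of 0.991 to 1.02, filterByExpr (15773 genes kept) and no covariate. The quasi-likelihood F test was adjusted by Benjamini-Hochberg over all 15773 genes, with calls at adjusted p under 0.05. Between libraries of a group, the common biological coefficient of variation came to 10.2%. SEs are |log2 fold change| over √F. CPM are TMM-scaled. A score added 0.5 CPM before the log. Alternatives were DESeq2 1.42.0, its size factors, no filter, 2 groups only, each library left out, a replicate block, length offsets and a Y-linked covariate. The fit was tested on simulated data. The members and all gene lists were chosen with earlier results of these data known. Values per library are given for Brca1, Brca2, Atm, Atr, Chek1, Chek2, Prkdc, Parp1, Trp53bp1, Fancd2, Xrcc1 and every called member. They are also given for up to 4 called genes of each pathway list per comparison, not always those with the smallest p. Library values of Topbp1, Mdc1, Rad51ap1 and Xrcc4 were added after their values were seen. Promoter and motif windows are RefSeq sequence.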

Additional observations from a re-analysis of the deposited data

How the results depend on the processing

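The count of members lower in DKO against WT, 5 in the report, was 11 with DESeq2 and 18 with only those 2 groups in the fit. It was 3 with length offsets, 2 of them among the 5, and 0 with the Y-linked covariate, and leaving out each library in turn gave 0 to 15. In Smarca1 KO against WT it was 7 with DESeq2, against 0. Parp1 kept its call in 15 of 18 alternatives, Brca2 and Rad50 in 13, Fanca in 12 and Atm in 11. The replicate numbers did not pair the libraries throughout. Correlations of same-numbered deviations were 0.44, -0.035 and 0.19 between DKO and Smarca1 KO and -0.072, -0.11 and -0.056 between DKO and WT. Between Smarca1 KO and WT they were -0.090, 0.014 and 0.031. The highest, 0.44, was between DKO replicate 1 and Smarca1 KO replicate 1, the libraries highest in meninges markers. With the replicate block, 6 members were called in DKO against WT and 0 in the other comparisons.

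Sign changes were followed only for Brca1, Brca2, Atm, Atr, Chek1, Chek2, Prkdc, Parp1, Trp53bp1, Fancd2, Xrcc1, Fanca and Rad50. Those of them that changed sign were not called in that comparison, in the reported fit or in the alternative (log2 fold changes, cause not tested). Further members changed sign too: in DKO against Smarca1 KO, 15 of 39 lay below 0, and 29 without Smarca1 KO replicate 3. In DKO against WT, 36 lay below 0, and 21 with the Y-linked covariate. Leaving out each library in turn gave, in DKO against Smarca1 KO, -0.054 to 0.28 for Chek1, -0.043 to 0.094 for Chek2, -0.014 to 0.20 for Fancd2, -0.063 to 0.036 for Prkdc and -0.079 to 0.048 for Xrcc1. It gave -0.029 to 0.032 for Atr in DKO against WT and -0.063 to 0.020 for Trp53bp1 in Smarca1 KO against WT. The Y-linked covariate gave 0.19 for Fanca, 0.051 for Parp1, 0.038 for Prkdc and 0.062 for Xrcc1 in DKO against Smarca1 KO, and 0.16 for Brca1, 0.43 for Chek1 and 0.097 for Fancd2 in DKO against WT. Atr in DKO against WT was -0.0024 with DESeq2, -0.0024 with its size factors, -0.00057 with no filter, -0.00021 with the 2 groups only, -0.13 with length offsets and -0.029 without DKO replicate 1 and Smarca1 KO replicate 1, the libraries highest in meninges markers. That alternative and protein-coding transcripts only were chosen after seeing the data. In Smarca1 KO against WT they gave 0.020 and 0.022 for Trp53bp1.

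Over all genes, DKO against Smarca1 KO called 692 genes, against 1183 with DESeq2, 181 with 2 groups only, 389 with length offsets, 11 with the Y-linked covariate, 398 without the libraries highest in meninges markers, 461 with protein-coding transcripts only and 286 to 795 with a library left out. DKO against WT called 1887, against 2869 with DESeq2, 3444 with 2 groups only, 6 with the Y-linked covariate and 450 to 3178 with a library left out. Smarca1 KO against WT called 53, against 90 with no filter, 706 with DESeq2, 29 with the replicate block, 607 without the libraries highest in meninges markers, 25 with protein-coding transcripts only and 14 to 72 with a library left out.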
